A study of Mus musculus with 2 samples.

Results

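The cells described here are bone marrow progenitors that carry Zbtb16 transcripts and lack the marks of mature lymphocytes, as precursors of innate lymphoid cells (ILC) do. They were chosen by raw counts of unique molecular identifiers (UMIs, each standing for 1 captured transcript) in barcodes that showed 1000 genes or more and a mitochondrial share of UMIs no higher than 10%, called deep barcodes below. A member had at least 2 UMIs of Zbtb16 and at least 1 of Tcf7, at most 1 UMI over Il1rl1, Hs3st1 and Il2ra together, and none of Cd3d, Cd3e, Cd3g or Ncr1. This rule found 326 members among 7633 deep barcodes, 76 in the wild-type library (WT) and 250 in the library with LCR1 knocked out (KO).

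The study asked what deleting LCR1 does to the development of group 2 ILC (ILC2). Bone marrow came from WT mice and from mice lacking both copies of LCR1, all C57BL/6 (C57BL/6J in the design text) and 8 to 12 weeks old, with no treatment. Animals of a genotype, males and females in equal number, were pooled before 1 library was made with the 10x Genomics 3′ chemistry v3.1, so each genotype is 1 sample. Cells had been sorted as viable, CD45+, negative for lineage markers and positive for CD127, the interleukin-7 receptor alpha chain. Where LCR1 lies and which cells use it are not given in the labels, so no transcript checks the genotype directly. With 1 library per genotype no test between genotypes was possible, and every interval below (95%) covers counting error only.

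Zbtb16 encodes PLZF, a zinc-finger transcription factor that marks the marrow precursor able to give rise to ILC1, ILC2 and ILC3 but not to conventional T or B cells. In the same precursor TCF-1, the product of Tcf7, and Tox act early in commitment to the lineage, and the surface receptor PD-1, the product of Pdcd1, appears before maturation. The lineage depends on Id2, a protein that binds E protein transcription factors and keeps them off DNA, and it later divides under factors such as Gata3 and Rora (ILC2) or Tbx21 (ILC1).

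The libraries differed in make-up before any gene was compared. WT held 20293 barcodes with 47883132 UMIs and KO 8476 barcodes with 52137780 UMIs, but only 3290 WT barcodes (16.2%) were deep, against 4343 in KO (51.2%). Members were deeper than deep barcodes in general, with a median of 13186 UMIs in WT and 10818 in KO against 5372 and 7261. They summed to 1082640 UMIs in WT and 3052725 in KO, so the WT values rest on the smaller sum. Both libraries shared 75 barcode sequences, none of them of a member. Scrublet, a doublet caller, marked no WT barcode, which counts as a failed call, and 34 KO barcodes (0.783%), 1 of them a member.

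The genes behind the rule are given as a description, because the members were chosen by them. Zbtb16 ranged from 2 to 38 UMIs per WT member with a median of 9, and from 2 to 32 per KO member with a median of 6. Its summed level was 823 CPM (the share of the members' UMIs in that library that belong to the gene, times 1000000) in WT and 681 CPM in KO. Tcf7 stood at 738 and 666 CPM, where here and below the first of paired values is WT and the second KO. The markers that the rule did not use were present as the label says: Tox, the HMG-box factor of early ILC and T cell development, was found in 93.4% of WT and 90.4% of KO members, its relative Tox2 in 85.5% and 66.8%, and Pdcd1 in 78.9% and 64.4%. Members at the limit were fewer than those well inside it, since 10 WT members (13.2%) and 50 KO members (20.0%) had exactly 2 Zbtb16 UMIs, while 49 (64.5%) and 136 (54.4%) had 6 or more.

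Cells with too few Zbtb16 UMIs for the rule carried less Tox2, Pdcd1 and Id2 than members. Barcodes with 1 Zbtb16 UMI that met every other limit numbered 25 in WT and 71 in KO, and their Tox2 level was 45.0 and 60.5 CPM, against 137 and 138 CPM in members with exactly 2 Zbtb16 UMIs and 474 and 260 CPM in members with 3 or more. Pdcd1 followed the same order, at 41.5 and 74.3 CPM outside, 146 and 84.5 CPM at the limit and 287 and 176 CPM beyond it. In WT Id2 stood at 394, 865 and 1774 CPM over these 3 groups, and in KO at 171, 218 and 236 CPM. Members at the limit held more of 2 genes of other cells. In KO Klrd1, a receptor subunit of natural killer (NK) cells, was at 223 CPM there against 22.0 CPM in the remaining members, and Cd74, the invariant chain of class II antigen presentation, at 316 against 67.7 CPM. In WT, with 10 and 66 cells, Klrd1 was at 16.2 against 6.26 CPM and Cd74 at 129 against 12.5 CPM. Barcodes shut out by Cd3 UMIs alone (16 in WT, 30 in KO) had Tox2 at 220 and 246 CPM, against 436 and 238 CPM in all members, whereas those shut out by more than 3 UMIs of the ILC2 genes (16 and 15) had 4.54 and 97.3 CPM.

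Members were next compared with all other deep barcodes of their own library. They were chosen on transcripts of these same cells, so these values are descriptions without a test. The genes of the rule are left out of the counts. A gene was measured if the groups together had 30 UMIs of it and the higher group 50 CPM, and it passed the size rule at a 2-fold difference whose interval left out 1. In WT 200 of 3625 measured genes (5.52%) were higher in members and 302 (8.33%) lower, and in KO 116 of 3449 (3.36%) were higher and 159 (4.61%) lower. Of the 3317 genes measured in both libraries, 96 were higher in members in both, 137 were lower in both and 0 went opposite ways.

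The genes highest in members included several with no textbook role in ILC. Pgam2, the muscle form of phosphoglycerate mutase, was at 58.2 and 84.2 CPM in members, 77.8 and 43.8 times its level in the other deep barcodes. Cacna1e, a voltage-gated calcium channel subunit, was 53.0-fold higher in WT and 20.3-fold in KO, and Bcas1, known from oligodendrocytes and breast cancer, 46.5-fold and 16.4-fold. Fgf3, a fibroblast growth factor, was at 158 and 150 CPM, 15.5-fold and 17.5-fold higher. Rxrg, a retinoid X receptor, Igfbp7, a secreted binding protein of insulin-like growth factors, and Tnni1, a slow-muscle troponin, followed at 12.7-fold and 11.4-fold, 16.8-fold and 11.4-fold, and 10.8-fold and 6.41-fold. Genes shared with T cells were among them too: Trat1, an adaptor of the T cell receptor, was 17.3-fold and 7.60-fold higher, and Themis, which acts in thymocyte selection, 8.44-fold and 6.13-fold. The markers Tox2 (47.1-fold and 15.3-fold), Pdcd1 (14.8-fold and 6.81-fold) and Tox (10.4-fold and 5.92-fold) completed the 12 genes.

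Several of the 12 lowest genes in members belong to basophils, mast cells, plasmacytoid dendritic cells or myeloid cells. The basophil protease Prss34 was 42.2-fold lower than in the other deep barcodes in WT and 50.5-fold lower in KO, and Mcpt8, another, 24.3-fold and 29.1-fold lower. The IgE receptor chains Fcer1a (32.3-fold and 56.9-fold) and Ms4a2 (40.6-fold and 12.8-fold) and Siglech, a lectin of plasmacytoid dendritic cells (93.9-fold and 27.3-fold), were lower as well. Cathepsin G (Ctsg) was 45.8-fold and 24.4-fold lower and the haematopoietic progenitor factor Lmo2 26.7-fold and 13.7-fold lower. Cox6a2, Mpeg1, Gimap3, Nucb2 and Ly6c2 made up the remaining 5, each at least 11.6-fold lower in WT and 11.7-fold in KO.

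The comparison classes were drawn from the other deep barcodes by UMI limits on a few genes, and all 4 also held transcripts of other cells. All 4 were also limited to at most 1 Zbtb16 UMI and no Cd3 UMI. A low level in them of a gene that goes with Zbtb16 is therefore partly built in. The ILC2-gene class (at least 4 UMIs of Il1rl1, Hs3st1 and Il2ra together, 598 WT and 443 KO barcodes) held Il1rl1 at 544 and 527 CPM but also the basophil proteases Prss34 at 3978 and 2669 CPM and Mcpt8 at 2439 and 2049 CPM, so it takes in RNA of basophils and values in it are not those of ILC2 alone. The NK or ILC1 class (an Ncr1 UMI) held Siglech at 150 CPM in WT against 10.0 CPM in KO. The early B class (at least 3 Cd79a UMIs) held the plasma cell transcript Igkc at 180 and 23605 CPM and Jchain at 402 and 2558 CPM. In the lymphoid progenitor class (at least 2 Flt3 UMIs) 4 of 7 measured erythroid and granulocyte genes were lower in KO. Their list median was -4.07 as a log2 ratio of KO over WT, while 0.778% of all genes measured in that class were lower. The part of these transcripts in differences between the classes was not tested.

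**Figure D1:**
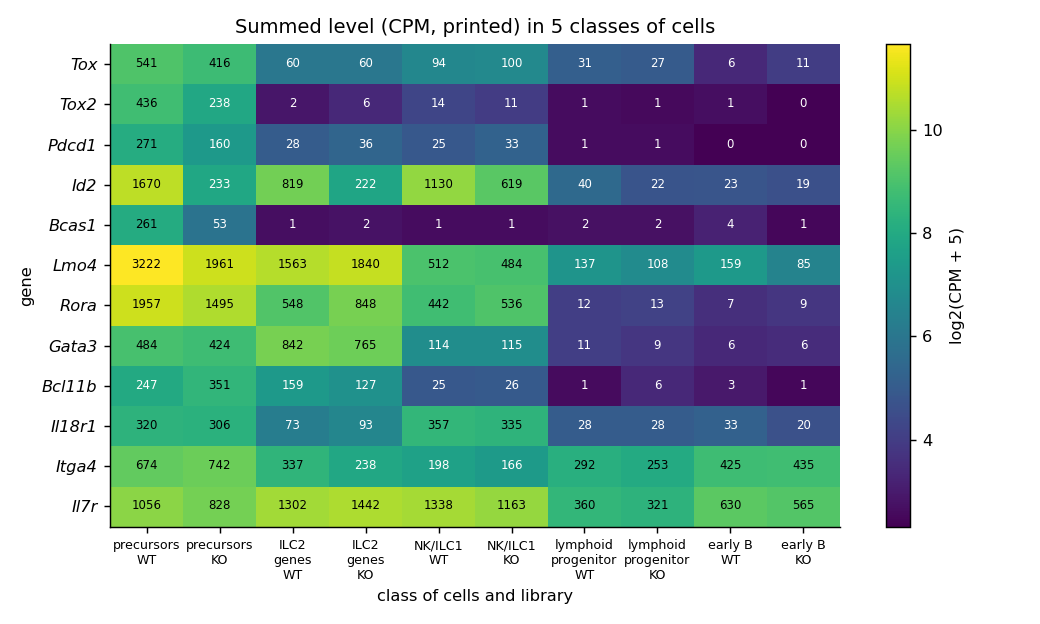
Levels of defining genes in members (labelled precursors) and in 4 comparison classes of deep barcodes, as CPM printed on a log2(CPM + 5) colour scale, with WT and KO columns for each class. Tox2, Pdcd1 and Bcas1 are high in the member columns, and Id2 is high in WT members, NK or ILC1 and ILC2-gene columns and lower in each KO column beside them.

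Marker lists of other cell types were summed over the members to see what else the rule had let in. The 5 ILC precursor markers summed to 2809 and 2160 CPM in members, against 168 and 241 CPM in the other deep barcodes. Zbtb16 and Tcf7, by which members were chosen, are among the 5, so part of this contrast was fixed by the rule. T cell markers summed to 1873 and 2000 CPM, against 351 and 568 CPM in the other deep barcodes. In members they were mostly transcripts of receptor constant regions such as Trbc1 (1531 and 1687 CPM). Cd3d, Cd3e and Cd3g were at 0 by the rule. ILC2 markers, some of them limited by the rule, reached 631 and 531 CPM through Gata3, against 1029 and 584 CPM in the other deep barcodes. Il13 and Areg were at 0 in both libraries. NK or ILC1 markers were higher in members, at 506 and 481 CPM against 304 and 411 CPM in the other deep barcodes. Members with 3 or more UMIs of them numbered 56 in WT and 155 in KO. Ncr1 was at 0 by the rule, and Gzma and Prf1 were at 0 in WT but not in KO. Basophil or mast cell markers reached 238 and 286 CPM against 4486 and 2563 CPM in the other deep barcodes, and early B cell markers 50.8 and 46.8 CPM, with Igll1 at 0. In all 57 WT members and 137 KO members held 3 or more UMIs of early B, plasmacytoid dendritic, basophil or mast, or erythroid or granulocyte markers, and whether these UMIs are free RNA or a second cell was not tested.

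Factors of the later ILC branches were looked for in members. To compare cells at equal depth each was thinned to 3000 UMIs, which left out 2 WT and 3 KO members. Gata3 was then found in 64.9% of WT members (52.9 to 75.6, exact Clopper-Pearson interval) and 68.0% of KO members (61.8 to 73.8), and Rora in 89.2% and 81.0%. Tbx21 was found in 3 of 247 thinned KO members (1.21%). Bcl11b, which T cells and ILC2 need, was met with Gata3 in 79.2% of the WT members that had it and in 78.3% in KO, against 58.0% and 60.3% of the members without a Bcl11b UMI. Pdcd1 was found in 49.0% of WT and 47.3% of KO members with a Tox2 UMI and in 32.0% and 31.4% of those without. These shares describe cells of 1 library each.

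Members were more frequent in the KO library. They made up 2.31% of deep barcodes in WT (1.82 to 2.88) and 5.76% in KO (5.08 to 6.49), 2.49 times the WT share (1.92 to 3.27). The ratio moved with depth: it was 7.32 with deep barcodes taken from 500 genes, 1.90 from 2000 genes, and 1.42 (1.02 to 2.01) when each cell was thinned to 3000 UMIs before the limits were applied, with 51 WT and 127 KO members. Thinning also dropped barcodes under 3000 UMIs, which left 2353 of 3290 deep barcodes in WT and 4115 of 4343 in KO. The ratio was 4.51 without members that held 3 or more foreign UMIs, which left 19 in WT and 113 in KO. The denominator is whatever else passed the sort and the gene limit, so a larger number of these cells per mouse cannot be told apart from a smaller number of other cells.

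Gene levels were then compared between KO and WT members. A gene passed the size rule at a 1.5-fold difference whose interval left out 1, under the same limits of 30 UMIs and 50 CPM. Of 3373 measured genes, 132 (3.91%) were higher in KO and 101 (2.99%) lower, and the median of all was -0.03 on the scale of log2(CPM + 5) ratios. Together 6.91% passed, the share to set beside each count from a gene list below. Which genes passed depended on which cells counted: with cells thinned before the limits were applied, 31 of the 132 and 14 of the 101 passed, and without members that held foreign UMIs 40 and 26. Scaling by TMM factors in place of totals gave 154 higher and 73 lower (67.8% higher against 56.7%), and leaving out members with 2 or more UMIs of cycling markers gave 139 and 155 (47.3%). Of the 59 genes named by rule that passed, Id2, Bcas1, Tiam1, Cd74, Cd69, Klf6 and Klf2 passed in all 17 settings applied to single genes.

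**Figure D2:**
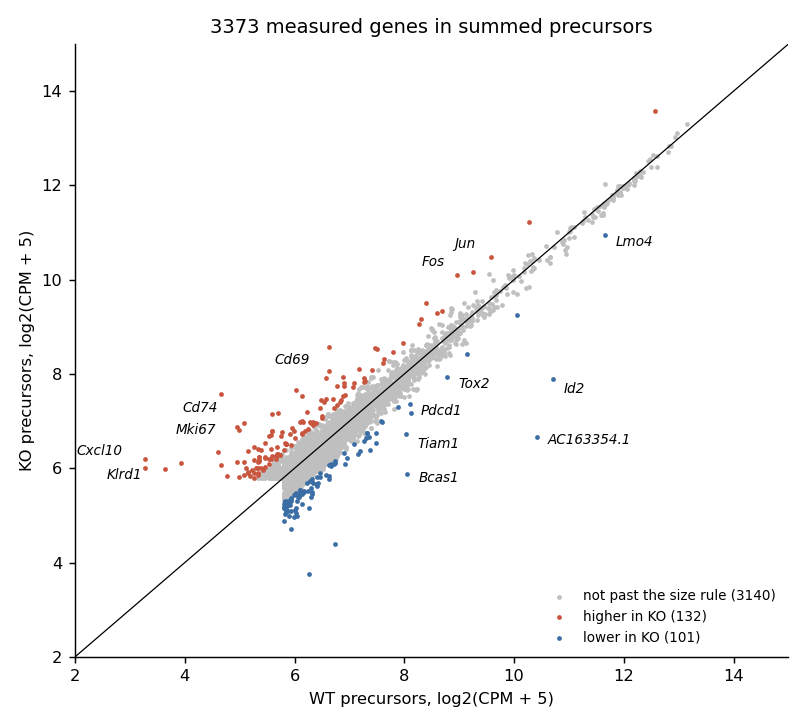
Level in KO against WT members of the 3373 measured genes, both axes as log2(CPM + 5) of the summed members (labelled precursors), with genes past the size rule coloured by direction and leading genes labelled. Id2 (1670 CPM in WT against 233 CPM in KO) and AC163354.1 (1364 and 97.0 CPM) lie farthest below the diagonal among genes of high level.

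Id2, the inhibitor of E proteins, was 7.18-fold lower in KO members (6.58 to 7.84). It is protein-coding (ENSMUSG00000020644) and its mm10 position is chromosome 12, 25093799 to 25097140, minus strand. In WT 1808 UMIs gave 1670 CPM (1594 to 1749, exact Poisson interval), and in KO 710 UMIs gave 233 CPM (216 to 250). Per cell the WT level ran from 0 to 5810 CPM with a median of 1707, and the KO level from 0 to 2284 CPM with a median of 123, so the 2 ranges overlapped while the WT lower quartile (1025 CPM) lay above the KO upper quartile (379 CPM). After thinning 87.8% of WT members (78.2 to 94.3) and 39.7% of KO members (33.5 to 46.1) had Id2, and 93.4% and 64.4% did at full depth. The early B class, which should lack the gene, gave 4.65% and 7.14% after thinning, below the share in KO members, though in KO that class also holds plasma cell transcripts. The fold stayed between 5.24 and 7.52 over all settings tried.

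The difference in Id2 was present at every depth. In members under 8000 UMIs Id2 was at 1911 CPM in WT against 258 CPM in KO, from 8000 to below 14000 UMIs at 2388 and 338 CPM, and from 14000 UMIs at 1396 and 133 CPM. Other classes of the same libraries, drawn by UMI limits of their own, showed smaller folds. Id2 was 3.69-fold lower in KO in the ILC2-gene class (3.39 to 4.03, at 819 and 222 CPM) and 1.83-fold lower in NK or ILC1 (1.68 to 1.98, at 1130 and 619 CPM). The intervals of these 3 folds did not overlap, but they cover counting error only and the difference between classes was not tested across animals. KO members and the KO ILC2-gene class stood at 233 and 222 CPM.

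A further gene of this chromosome region that was lower was AC163354.1 (ENSMUSG00000113669), a long noncoding RNA on the plus strand of chromosome 12 at 25303940 to 25471979, 207 kb from Id2, and it was picked out after its values were seen. It was at 1364 CPM (1296 to 1436) in WT and 97.0 CPM (86.2 to 109) in KO, 14.1-fold lower (12.4 to 16.0). It was seen in 75.7% of thinned WT members and 18.6% of thinned KO members, and in none of the 43 WT and 112 KO thinned barcodes of the early B class, where 3 barcodes of the total, the limit that a count of 0 allows for barcodes with a UMI, are 6.98% and 2.68%. Among NK or ILC1 cells the level was 650 CPM in WT against 151 CPM in KO, 4.29-fold lower (3.75 to 4.91), and in the ILC2-gene class it was at 13.0 and 1.11 CPM. Kidins220, a protein-coding neighbour 30.6 kb on the other side of Id2, did not pass, at 63.7 and 61.9 CPM in members.

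The stretches before the starts of Id2 and of Pdcd1, a marker of these cells that was also lower in KO, are shown with the motif CANNTG, the E box that E proteins bind, in capitals. They run 5′ to 3′ on the minus strand and come from RefSeq on GRCm38.p6.
Id2, chr12:25096254-25096342: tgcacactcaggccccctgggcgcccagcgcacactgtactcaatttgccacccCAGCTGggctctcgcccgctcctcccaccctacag
Pdcd1, chr1:94052554-94052803: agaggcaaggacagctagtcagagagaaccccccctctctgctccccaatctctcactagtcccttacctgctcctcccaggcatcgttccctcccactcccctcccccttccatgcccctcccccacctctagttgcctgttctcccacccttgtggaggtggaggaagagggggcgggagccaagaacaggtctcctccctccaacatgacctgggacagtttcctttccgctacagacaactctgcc
For Id2 only 89 of the 250 bases before the RefSeq start are printed, because 161 lie in an exon of another annotated Id2 transcript. These printed bases lie inside the span of the Id2 gene given above (25093799 to 25097140), not upstream of it. They hold 1 E box, CAGCTG, starting 196 bases before the RefSeq start. Of 32851 RefSeq promoters 33.0% hold the motif in that same window, on either strand, since CANNTG reads as itself on both. The 250 bases before Pdcd1 hold 0 matches, while 66.2% of promoters hold 1 or more. A match is a description of letters and shows neither binding nor a cause.

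Transcripts of the E proteins themselves did not pass. Tcf3 (E2A) was at 98.8 CPM in WT against 92.0 CPM in KO members, Tcf4 (E2-2) at 218 and 190 CPM and Tcf12 (HEB) at 115 and 132 CPM. Of 12 measured genes listed as E protein targets in lymphoid cells, 1 was higher and 3 lower, with a median of -0.05. The rule gene Tcf7 is among these 12. Past the rule were thus 33.3% of them, against 6.91% of all measured genes. Hes1, also a Notch target, was higher at 191 and 297 CPM, and Lef1, a relative of TCF-1, was lower at 116 and 62.9 CPM, although Lef1 turned to a log2 ratio of 0.08 without members that held foreign UMIs. Ikzf3 (Aiolos) was lower at 232 and 152 CPM and Socs1, a brake on cytokine signalling, at 159 and 96.0 CPM. With cells thinned before the limits were applied none of Hes1 (log2 ratio 0.01), Lef1 (-0.30), Ikzf3 (-0.26) and Socs1 (-0.33) passed. Dntt, the template-independent polymerase of antigen receptor joining, did not pass, at 236 and 243 CPM.

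**Figure D3:**
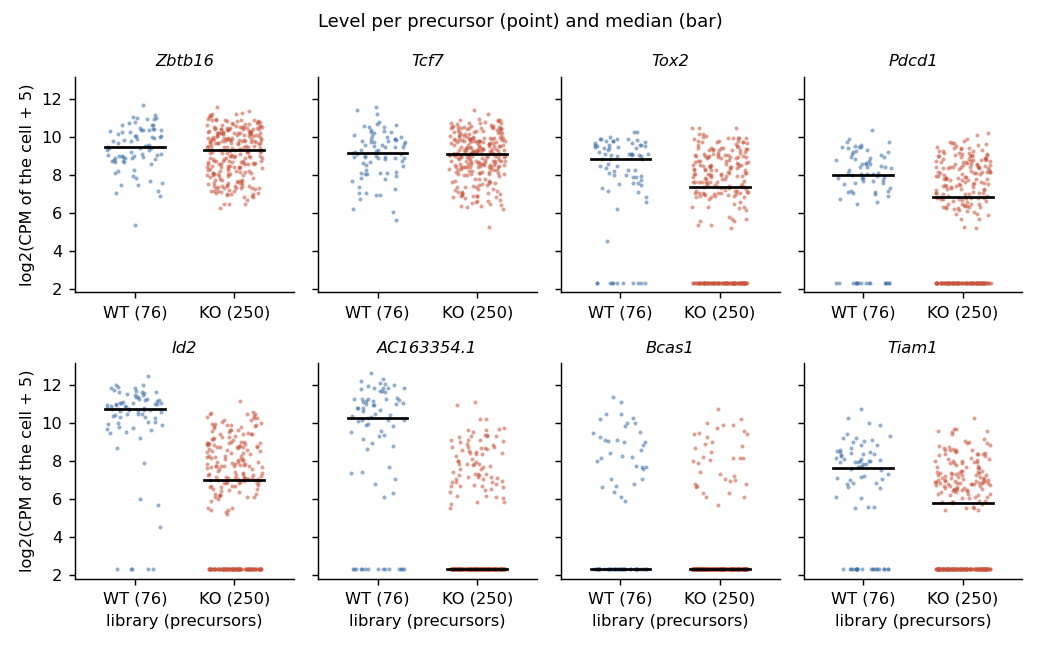
Level per cell, as log2(CPM + 5), of genes in the 76 WT and 250 KO members, 1 point per cell with the median marked. Id2 shows most WT cells above most KO cells, with medians of 1707 and 123 CPM, while Tcf7, with medians of 571 and 545 CPM, overlaps.

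Among the genes of the ILC precursor list, 5 of 20 measured were lower in KO and 0 higher, with a median of -0.27. Tox2 fell from 436 CPM (398 to 477) to 238 CPM (221 to 256), 1.83-fold lower (1.63 to 2.06), and 66.2% of thinned WT members against 44.5% of KO members had a UMI of it. Pdcd1 fell from 271 CPM (241 to 303) to 160 CPM (146 to 174), 1.70-fold lower (1.46 to 1.97), but its thinned shares, 43.2% (31.8 to 55.3) and 38.5% (32.4 to 44.8), lay within each other's intervals. The others were Id2, Lmo4, a LIM-domain adaptor of transcription complexes (3222 and 1961 CPM), and Arg1, the arginase of ILC2 and their precursors (99.8 and 63.2 CPM). The members were chosen on Zbtb16 and Tcf7, which did not pass but are counted among the 20 genes and in the median. With cells thinned before the limits were applied Tox2 (log2 ratio -0.53) and Pdcd1 (-0.57) no longer passed, Lmo4 did not pass in 7 settings, and without members that held foreign UMIs Tox2 was at -0.43 and the list median at -0.03.

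Most other genes of the precursor list and the factors of its branches did not pass. Gata3 was at 484 CPM in WT against 424 CPM in KO, Rora at 1957 and 1495 CPM, Tox at 541 and 416 CPM, and Maf at 419 and 334 CPM. Il7r, which encodes the CD127 of the sort, was at 1056 and 828 CPM, the integrin subunit Itga4 at 674 and 742 CPM and the interleukin-18 receptor chain Il18r1 at 320 and 306 CPM. Nfil3, an early activator of Id2, was at 11.1 and 21.0 CPM, too low to be measured. Bcl11b was higher without passing, at 247 and 351 CPM, which missed the 1.5-fold limit here and passed it in 6 other settings. Bcl11b and Id2 also went together differently: in WT all 24 thinned members with a Bcl11b UMI had Id2, against 82.0% of those without, and in KO 32.1% of 106 did, against 45.4%. That difference between libraries was not tested.

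Tox2 and Pdcd1 were lower in KO at every depth, and Lmo4 was not. Tox2 was at 402, 547 and 401 CPM in WT members of low, middle and high depth (the same bins as for Id2) and at 287, 328 and 146 CPM in KO. Pdcd1 was at 440, 314 and 238 CPM in WT and at 292, 209 and 80.2 CPM in KO. In the shallowest bin the WT and KO intervals overlapped for Tox2 (275 to 568 and 236 to 345) and for Pdcd1 (306 to 612 and 240 to 351). Zbtb16 was at 1068, 961 and 749 CPM in WT and 996, 840 and 455 CPM in KO, given as description because the rule asks for at least 2 UMIs of it. Its intervals overlapped in the low bin (853 to 1321 and 900 to 1101) and the middle bin (845 to 1089 and 789 to 892). It did not pass over all members. Lmo4 was at 3080, 4981 and 2628 CPM in WT and 3836, 2672 and 828 CPM in KO, so it was higher in KO in the shallowest bin, which held 15 WT and 62 KO members.

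**Figure D4:**
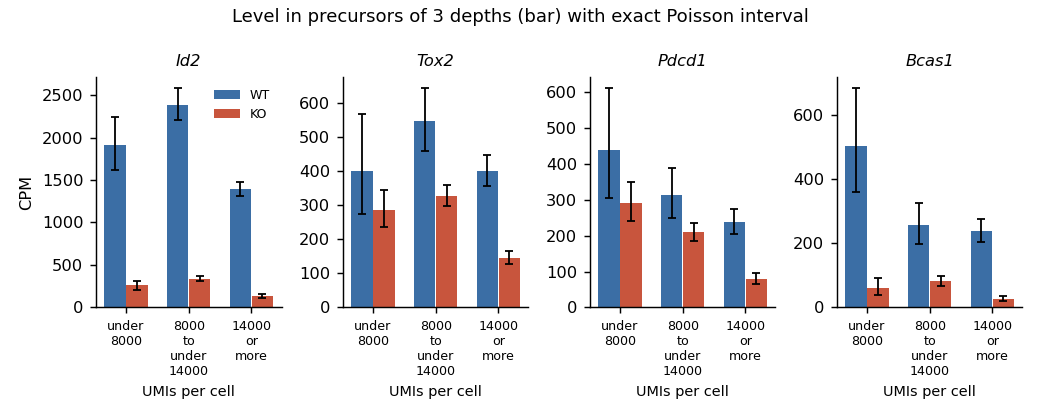
Level of Id2, Tox2, Pdcd1 and Bcas1 in members of 3 depth bins (under 8000, 8000 to below 14000 and from 14000 UMIs per cell), as CPM with exact Poisson 95% intervals, for WT and KO. WT lies above KO in each bin for each gene, with Id2 at 1911 against 258 CPM in the shallowest. The intervals of Tox2 and of Pdcd1 overlap between the libraries in that bin.

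Of 16 measured genes of the list named for ILC2 identity and effectors, 7 were lower and 1 higher, with a median of -0.47. These calls were 50.0% of the measured list, against 6.91% of all measured genes. In the ILC2-gene class Bcas1 (1.28 and 1.85 CPM) and Tiam1 (34.7 and 38.0 CPM) were far below their member levels, and Lmo4 and Arg1 are also in the precursor list. Bcas1 showed the largest fall, from 261 CPM (232 to 294) to 53.4 CPM (45.5 to 62.3), 4.90-fold lower (4.02 to 5.97). It was carried by 47.4% of WT and 15.2% of KO members and by 27.0% and 9.31% after thinning, and in the ILC2-gene, NK or ILC1 and lymphoid progenitor classes it was at 1.85 CPM or less. Tiam1, which activates the GTPase Rac, fell 2.56-fold (2.17 to 3.02), from 258 to 101 CPM, and the scavenger receptor Stab2 from 61.0 to 26.5 CPM. Il17rb, the receptor chain for interleukin-25, was lower at 96.1 and 61.3 CPM and the tetraspanin Cd81 at 102 and 66.5 CPM, along with Lmo4 and Arg1. Rgs2, a regulator of G protein signalling, was the 1 higher gene, at 85.0 and 133 CPM. In the ILC2-gene class the same list had a median of 0.03, with 4 of 23 measured genes higher and 0 lower, against 2.85% and 2.17% of all genes measured there. Il1rl1, Hs3st1 and Il2ra, which define that class, are on the list, while the rule holds them together to at most 1 UMI in a member. The medians in members and in that class thus rest on unlike sets of genes shaped by the selection. The list was chosen with earlier results of these data known, which is no independent evidence of its direction. Without members that held foreign UMIs its median was 0.00.

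Of 7 measured NK and ILC1 genes, 1 was higher and 2 lower, 42.9% of them against 6.91% of all measured genes. The chemokine Ccl5 fell from 1052 to 608 CPM and Il2rb, the receptor chain for interleukins 2 and 15, from 94.2 to 62.6 CPM. Klrd1 was higher at 7.39 and 58.6 CPM, but only 6.58% of WT and 7.20% of KO members had a UMI of it and 1 KO cell held 39.1% of its UMIs. Its call was lost in members with 3 or more Zbtb16 UMIs (log2 ratio 1.26) and, by construction, without members that had a UMI of Klrd1, Eomes, Gzma or Prf1 (7 in WT, 31 in KO), which gave 148 genes higher and 107 lower. Il2rb passed in only 4 of the 17 settings. Of 7 measured ILC3 genes 1 was higher, Cd74, at 25.9 and 113 CPM, found in 15.8% and 18.4% of members with 22.9% of its KO UMIs in 1 cell. Tbx21 was at 0.924 and 4.59 CPM, below the limit for measured genes.

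T cell genes mostly did not pass, with 1 of 18 measured (the rule gene Tcf7 included) higher, 2 lower and a median of -0.03. Past the rule were 16.7% of them, against 6.91% of all measured genes. The Src-family kinase Lck was higher at 113 and 180 CPM, while Lef1 was among the lower genes. Trbc1, the constant region of the T cell receptor beta chain, did not pass at 1531 and 1687 CPM. Of 11 measured lymphoid progenitor genes 2 were higher and 1 lower (27.3%, median 0.22), and of 4 B lineage genes 2 were higher (50.0%, median 0.33). These medians turned to -0.33 without the Tcf7 limit and to -0.36 without members that held foreign UMIs, respectively. Cd24a, a surface protein of immature lymphocytes, was higher at 73.9 and 119 CPM, while Bcl11a, a factor of early lymphoid and B cells, was lower at 93.3 and 52.1 CPM. Ly6d, which marks B-biased progenitors, was higher at 108 and 164 CPM but lower in KO in 4 settings. Without members that held foreign UMIs none of Lck (log2 ratio 0.46), Cd24a (0.18) and Bcl11a (-0.49) passed. The early B marker sum was 50.8 CPM in WT against 46.8 CPM in KO.

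Immediate early genes, which cells switch on within minutes of a stimulus or of handling, were the list with most members past the rule: 18 of 23 measured were higher in KO and 0 lower, with a median of 0.87. Fos rose from 495 CPM (454 to 539) to 1090 CPM (1053 to 1128), 2.20-fold, and its partner Jun from 757 to 1429 CPM. Cd69, an early activation marker that also holds lymphocytes in tissue, rose from 93.3 to 261 CPM and was carried by 34.2% of WT and 56.8% of KO members. The zinc-finger factors Klf6 (90.5 and 235 CPM), Klf2 (30.5 and 77.6 CPM) and Klf4 (43.4 and 105 CPM) were higher too, as were Junb and Egr1, 2.08-fold and 2.14-fold. The same list was higher in KO in every class compared, with medians of 0.65 in the ILC2-gene, 0.76 in the lymphoid progenitor, 0.43 in the NK or ILC1 and 0.96 in the early B class. In members the median stayed between 0.80 and 0.96 over the 17 settings. Fos alone was 2.20-fold higher in members, 1.66-fold in the ILC2-gene, 2.65-fold in the lymphoid progenitor, 1.64-fold in the NK or ILC1 and 2.52-fold in the early B class. Of 10 heat shock genes 2 were higher, Dnajb1 (58.2 and 105 CPM) and Dnajb4 (45.3 and 68.8 CPM), and the median mitochondrial share per member was 4.10% in WT and 4.49% in KO. Gm42418 and AY036118, models that overlap ribosomal RNA, also differed, at 6056 and 12183 CPM and at 171 and 371 CPM, and the part of handling or RNA quality in these differences was not tested.

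**Figure D5:**
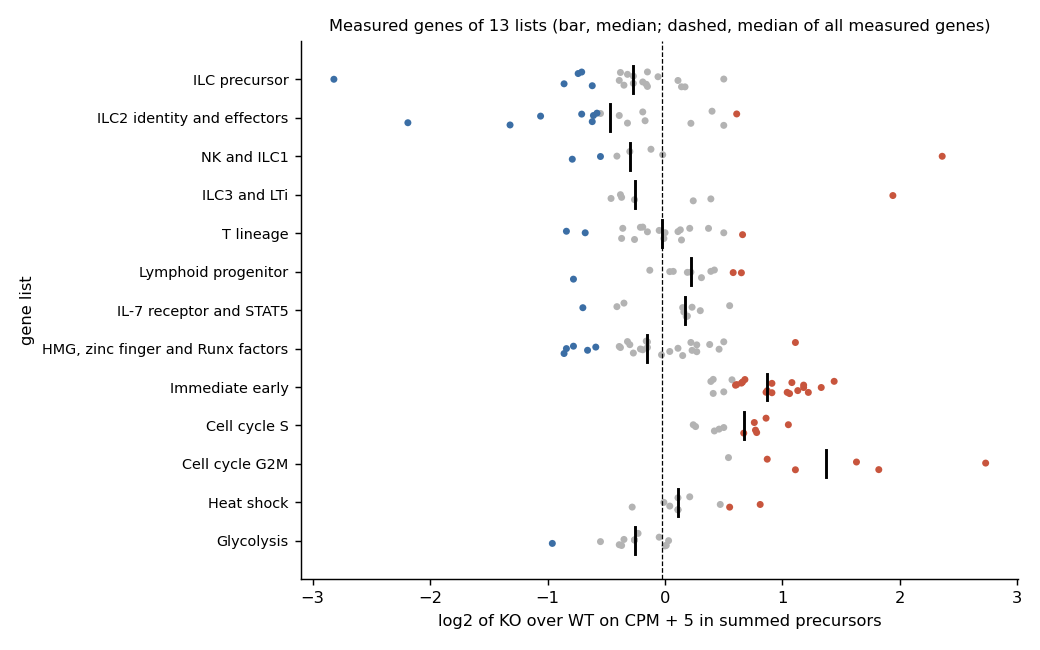
Log2(CPM + 5) ratio of KO over WT members for every measured gene of 13 gene lists, 1 point per gene coloured where past the size rule, with the list median as a bar. Immediate early genes lie to the right with a median of 0.87, and ILC2 and ILC precursor genes to the left with medians of -0.47 and -0.27. The ILC precursor list includes the rule genes Zbtb16 and Tcf7.

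Cell cycle genes were higher in KO members, 6 of 11 measured S phase genes (median 0.67) and 5 of 6 measured G2 and M phase genes (median 1.37), with 0 lower in either list. Mki67, the proliferation marker, rose from 26.8 CPM (17.9 to 38.5) to 107 CPM (95.8 to 119), and the topoisomerase Top2a from 60.0 to 197 CPM. Histone genes of S phase rose further, Hist1h1b from 20.3 to 186 CPM and Hist1h2ap from 93.3 to 378 CPM. Few cells carried these counts, since Mki67 was found in 28.9% of WT and 20.4% of KO members and Ube2c, of the mitotic ubiquitin ligase machinery, in 5.26% and 9.20%. The share of members with 2 or more UMIs of 7 cycling markers was 28.9% in WT and 26.0% in KO, and after thinning 5.41% (1.49 to 13.3) and 10.1% (6.66 to 14.6), a difference not detectable at this depth. By construction, leaving out those cycling members lowers these genes. Without those members Mki67 went to a log2 ratio of -0.21 and the list medians to 0.15 and 0.31. With thinning before the limits none of Mki67 (0.24), Top2a (0.30), Hist1h1b (0.91) and Ube2c (-2.11) passed, while Hist1h2ap did. The G2 and M phase median was 0.30 there. Top2a was at 0.07 without the Tcf7 limit and at 0.17 without members that held foreign UMIs, and did not pass in either. Both list medians stayed above 0 in all 17 settings. In the ILC2-gene class the list medians were -0.36 for S phase and -0.13 for G2 and M phase, and there Hist1h1b, Mki67 and Top2a were lower in KO.

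Further genes named by rule were scattered over functions. Cxcl10, an interferon-induced chemokine, stood at 4.62 CPM (1.5 to 10.8, from 5 UMIs) in WT and 68.8 CPM (59.8 to 78.8) in KO, 14.9-fold higher (6.28 to 46.4), found in 3.95% and 16.8% of members. It was higher in KO in the ILC2-gene class (14.0 and 61.3 CPM) and in NK or ILC1 (25.8 and 64.0 CPM) too, and the interferon list had 1 of 6 measured genes higher and 1 lower, with the interferon-induced factor Irf1 at 61.9 and 78.0 CPM. Prkca, a protein kinase C, rose from 43.4 to 138 CPM, Arpp21, an RNA-binding protein of early lymphocytes, from 28.6 to 120 CPM and Fam169b from 10.2 to 63.9 CPM. Lower in KO were Fgf15, a fibroblast growth factor (56.3 and 21.0 CPM), the sialyltransferase St6galnac6 (72.0 and 30.5 CPM), Kmo, an enzyme of tryptophan breakdown (60.0 and 28.2 CPM), Tnni1 (161 and 78.3 CPM), Gprin3 (54.5 and 26.9 CPM), the phosphatase and cofactor Eya2 (65.6 and 32.8 CPM) and Cela1, an elastase (73.9 and 37.0 CPM). With cells thinned before the limits were applied none of the 10 genes from Prkca to Cela1 passed, although Fam169b (log2 ratio 2.72) and St6galnac6 (-1.50) differed by more there, Fgf15 was at -0.95, and Prkca and Kmo shrank to 0.29 and -0.29. Cxcl10 did not pass with at most 5% mitochondrial UMIs (log2 ratio 2.19). Fgf15 stood at 0.418 CPM or less in all 4 comparison classes, which were limited to at most 1 Zbtb16 UMI.

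Receptors, adhesion genes and metabolism changed in single genes. Of 8 measured cytokine receptor genes 2 were higher, Ifngr1, a chain of the interferon-gamma receptor (165 and 266 CPM), and Il17ra, the shared chain of interleukin-17 receptors (36.0 and 67.2 CPM), and 2 were lower, Il17rb and Il2rb. Of 13 homing and adhesion genes 2 were higher, Klf2 among them, and 2 lower, the integrin chain Itgb2 and Gpr183, a receptor for oxysterols, with a median of -0.27. Of 27 HMG-box, zinc-finger and Runx factors 1 was higher, the chromatin protein Hmgb2 (331 and 718 CPM), and 5 lower, Tox2, Lef1, Ikzf3, Bcl11a and Cbfb, the partner of Runx proteins (75.7 and 46.2 CPM). The rule genes Zbtb16 and Tcf7 are among these 27. Past the rule were 50.0% of the cytokine receptor, 30.8% of the homing and 22.2% of the factor genes, against 6.91% of all measured genes. Without members that held foreign UMIs the calls of 5 of the receptor and adhesion genes named here changed. Il17ra had a larger log2 ratio (1.22) but did not pass, Ifngr1 was at 0.55, Il2rb at -0.20 and Itgb2 at -0.17, and Gpr183 turned to 0.67. Of the factors, Tox2 (log2 ratio -0.43), Lef1 (0.08), Ikzf3 (-0.56) and Bcl11a (-0.49) did not pass there either. In the interleukin-7 and STAT5 pathway 1 of 10 was lower, Socs1, and the survival factor Bcl2 did not pass at 1192 and 895 CPM. Of 12 glycolysis genes 1 was lower, the hexokinase Hk2 (175 and 87.5 CPM), while Gapdh was at 785 and 802 CPM. The interleukin-7 and glycolysis lists thus had 10.0% and 8.33% past the rule, near the 6.91% of all measured genes. None of 75 ribosomal protein genes, 12 mitochondrially encoded genes, 8 survival genes or 6 Gimap genes passed, with medians of -0.06, 0.15, 0.11 and -0.01.

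Transcripts of other cells also moved between the libraries in members. Prss34 was lower in KO at 58.2 and 26.2 CPM and Mcpt8 at 60.0 and 30.5 CPM, with Prss34 found in 60.5% of WT and 26.4% of KO members at 4.76% or less of its UMIs in any cell. Both genes were 2457 and 1459 CPM in the other deep WT barcodes and 1324 and 887 CPM in KO, and both turned to higher in KO when the Tcf7 limit was dropped. The basophil and mast cell list held 4 measured genes, 3 lower (the third is Lmo4) and 1 higher, Cpa3, the mast cell carboxypeptidase, at 105 and 208 CPM. Igkc, the immunoglobulin kappa constant region of plasma and B cells, was lower at 101 and 16.1 CPM, while the plasma cell markers summed to 420 CPM in WT against 1492 CPM in KO over the other deep barcodes. The part of RNA from other cells in the member values was not tested.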

How the data were processed

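Single-cell RNA of 2 libraries, 1 per genotype, was used. The deposited matrices hold UMI counts per gene (31053 genes) and barcode, made by the authors with Cell Ranger (3.1.0 per the file headers) on mm10 per the submitters' processing notes. Sources used here give neither the annotation release nor any downsampling. The members, gene lists and named genes were chosen with earlier results of these data known, so none of them is independent support. The rule for named genes takes 12 genes per direction, Id2, lineage factors and up to 4 members of each list past the size rule, leaving out receptor, ribosomal, mitochondrial, sex-linked and unnamed models, and other genes were named after their values were seen. UMIs of members were summed per library and divided by their total (CPM, 5 added for log2). Intervals (95%) are exact Poisson for sums, Clopper-Pearson for shares and conditional binomial for ratios, and UMIs from free RNA are not removed. Comparison classes were drawn by raw UMIs: an ILC2-gene class (at least 4 of Il1rl1, Hs3st1 and Il2ra), NK or ILC1 (Ncr1), lymphoid progenitors (at least 2 of Flt3) and early B cells (at least 3 of Cd79a). None had Cd3 UMIs, and only NK or ILC1 had Ncr1 UMIs. The ILC2-gene and NK or ILC1 classes had at most 1 Zbtb16 UMI and the other classes none. NK or ILC1 and lymphoid progenitors had at most 1 UMI of Il1rl1, Hs3st1 and Il2ra together. Lymphoid progenitors had none of Cd79a or Siglech. The code used Python 3.11.15, numpy 2.4.6, scipy 1.17.1, pandas 2.3.3, scanpy 1.11.5 and, for TMM factors only, edgeR 4.0.16 in R 4.3.3. Some named or listed genes are not reported here.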

Additional observations from a re-analysis of the deposited data

Results flagged for a closer look

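Shallow barcodes outside the comparison held a few cells of the same kind: 4 of 7229 WT barcodes with at least 500 but under 1000 genes met the UMI limits of the members, against none of 146 in KO. Several genes moved one way in members and the other way in another class, and none of these differences was tested. KO over WT was above 1 in members and below 1 in the ILC2-gene class for the cell cycle genes Hist1h1b (9.14 in members), Hist1h2ap (4.06), Mki67 (4.00), Pclaf (3.95) and Top2a (3.27), and for Ly6d (1.52). It was below 1 in members and above 1 in that class for Il2rb (0.664). Against lymphoid progenitors Cd74 differed in direction, at 4.37 in members. Against NK or ILC1 the genes Ly6d (1.52) and Gpr183 (0.659 in members) differed in direction. The NK or ILC1 class itself differed in make-up: the plasmacytoid dendritic gene Siglech was at 150 CPM in WT against 10.0 CPM in KO there, Ly6d at 360 and 38.1 CPM, and 7 of 7 measured plasmacytoid dendritic cell genes were lower in KO. The part of this in the Ly6d difference was not tested.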

How the results depend on the processing

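No paired analysis was possible because each genotype has 1 library and the labels give no replicate numbers. The share of members in KO over WT was 7.32 from 500 genes, 1.90 from 2000 genes, 4.51 without members holding 3 or more foreign UMIs and 1.42 when thinned before the limits, and between 2.30 and 2.68 under the other alternatives. Genes past the size rule numbered 354 without members holding foreign UMIs, 988 with at least 10 UMIs and no CPM limit and 56 at 2-fold, and between 175 and 296 otherwise. Members against the other deep barcodes gave between 489 and 639 genes in WT and between 274 and 317 in KO. Of 70 named genes 10 turned in some setting. On the log2 scale, without the Tcf7 limit Mki67 was at -0.46, Prss34 at 1.19, Ly6d at -0.22, Mcpt8 at 0.91 and the basophil and mast cell list median at 1.05. With thinning before the limits Ube2c was at -2.11, Prss34 at 0.71, Ly6d at -1.75, Bcl11a at 0.09, Mcpt8 at 0.86 and that list median at 0.56. Without members holding foreign UMIs Pclaf was at -0.62, Lef1 at 0.08, Ly6d at -0.72, Mcpt8 at 0.04, Rrm1 at -0.51 and Gpr183 at 0.67, and with 1 Zbtb16 UMI allowed Ly6d was at -0.65. Without cycling members, an alternative chosen after seeing the data like the one without NK gene UMIs, Mki67 was at -0.21, Pclaf at -0.86 and Rrm1 at -0.04. The cause of these changes was not tested, beyond the fewer cells that each setting leaves. The setting without foreign UMIs rests on 19 WT and 113 KO members, and the one thinned before the limits on 51 and 127.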
